A study of Mus musculus with 2 samples.

Results

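Transient receptor potential (TRP) channels are cation channels of the cell surface and of organelles. The mRNA of 6 of them, Trpm2, Trpm3, Trpm4, Trpm5, Trpm7 and Trpc1, was measured here in dissociated mouse islets, out of 33038 genes listed in either of 2 count tables. The rows of these 6 genes were taken by symbol, and cells were grouped by which of insulin (Ins1 plus Ins2), Gcg (glucagon), Sst (somatostatin) and Ppy (pancreatic polypeptide) made up at least 1% of the transcripts of the cell. The islets came from C57BL/6J mice at 8 weeks of age, labelled as control and male according to the methods of the study, and were isolated with collagenase, picked by hand and dissociated. Each of 2 libraries was prepared with RevGel-seq, a method that links each cell to a barcoded bead inside a reversible gel, from 10000 input cells. The methods call them technical replicates, so the SD between libraries and the p-values below hold no difference between animals.

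In beta cells, glucose metabolism closes potassium channels, the membrane depolarises, and calcium enters through voltage-gated channels to release insulin. TRP channels carry the background cation current that brings the membrane toward that point, and several are tuned by metabolites or by calcium itself. Trpm4 and Trpm5 are opened by intracellular calcium and pass monovalent cations, Trpm5 being best known from taste cells. Trpm2 is opened by ADP-ribose, Trpm3 by the steroid pregnenolone sulfate and by heat, Trpm7 is a magnesium-permeable channel fused to a kinase, and Trpc1 takes part in calcium entry linked to receptors and internal stores.

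Library 1 held 735 cells with 15931154 UMIs (unique molecular identifiers, counted transcripts), and library 2 held 748 cells with 17440292. The number of cells with insulin only was 182 in library 1 and 190 in library 2, with Gcg only 182 and 174, with Sst only 35 and 23, and with Ppy only 54 and 68. Gcg together with Ppy was found in 65 and 86 cells, Sst together with Ppy in 77 and 71, insulin with any other hormone in 37 and 27, and none of the 4 hormones in 91 and 92. A further 12 and 17 cells with both Gcg and Sst were too mixed to enter a comparison. The groups fitted their names on genes that had not made them. Of 8 beta cell markers, 7 were highest in insulin-only cells among the 4 single-hormone groups in both libraries, as were 5 of 7 alpha markers in Gcg-only cells, 3 of 5 delta markers in Sst-only cells and 3 of 5 gamma markers in Ppy-only cells. Hormone-free cells carried the markers of endothelial cells (summed level of 8 markers, 7045 and 8922 CPM, counts per 1e+06 UMIs) and of leukocytes (9 markers, 3608 and 3606 CPM). No barcode was shared between the libraries, and 16 cells (1.08%) were called doublets, of which 0 were in the single-hormone groups.

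The 6 genes lie on 5 chromosomes. On GRCm38, Trpm5 (ENSMUSG00000009246) spans chromosome 7 from 143069153 to 143094642 on the minus strand, 325771 bases beyond the end of Ins2, and overlaps Tssc4 on the other strand. Trpm4 (ENSMUSG00000038260) is on the same chromosome from 45302632 to 45333780. Trpm3 (ENSMUSG00000052387) spans chromosome 19 from 22139046 to 22995410 on the plus strand and holds the microRNA gene Mir204 on its own strand. Trpm2 (ENSMUSG00000009292) lies on chromosome 10 from 77907722 to 77970563, Trpm7 (ENSMUSG00000027365) on chromosome 2 from 126791565 to 126876230, and Trpc1 (ENSMUSG00000032839) on chromosome 9 from 95705082 to 95750375. The counts are of exonic reads. The strand setting of the counting is not given in the sources used here, so reads could be shared with genes on the other strand, which are Tssc4 for Trpm5, Rpl14-ps1 for Trpm4, Gm14212 for Trpm7 and 3 genes for Trpm3.

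The promoters of Trpm5 and Trpm3 are shown because these 2 genes separated the islet cell groups most. Each window runs from 250 bases before to 50 bases after a RefSeq start on GRCm38.p6, read along the gene. Capitals mark TAAT on either strand, the core bound by homeodomain proteins, and the E-box CANNTG, bound by basic helix-loop-helix proteins. Overlapping matches were allowed. The Trpm5 window, chr7:143094593-143094892 on the minus strand, held 1 TAAT and 0 CANNTG. The first Trpm3 window, chr19:22138796-22139095 on the plus strand, held 0 and 1, and the second, chr19:22447958-22448257, held 1 and 2. Of 32851 mouse promoter windows of the same length, 58.0% held TAAT and 72.3% held CANNTG, so these matches are common and describe the letters only.
Trpm5 promoter: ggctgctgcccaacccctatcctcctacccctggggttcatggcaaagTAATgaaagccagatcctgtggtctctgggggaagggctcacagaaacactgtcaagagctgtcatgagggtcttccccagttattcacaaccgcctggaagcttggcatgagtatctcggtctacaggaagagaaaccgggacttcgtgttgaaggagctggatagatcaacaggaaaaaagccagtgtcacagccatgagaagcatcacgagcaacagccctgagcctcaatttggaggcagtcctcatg
Trpm3 promoter, first start: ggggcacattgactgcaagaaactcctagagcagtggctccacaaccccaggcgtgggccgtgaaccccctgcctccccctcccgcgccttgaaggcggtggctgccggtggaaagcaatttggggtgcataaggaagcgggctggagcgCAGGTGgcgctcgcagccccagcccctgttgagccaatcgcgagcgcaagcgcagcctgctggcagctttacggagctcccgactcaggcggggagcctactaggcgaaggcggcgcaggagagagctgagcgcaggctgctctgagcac
Trpm3 promoter, second start: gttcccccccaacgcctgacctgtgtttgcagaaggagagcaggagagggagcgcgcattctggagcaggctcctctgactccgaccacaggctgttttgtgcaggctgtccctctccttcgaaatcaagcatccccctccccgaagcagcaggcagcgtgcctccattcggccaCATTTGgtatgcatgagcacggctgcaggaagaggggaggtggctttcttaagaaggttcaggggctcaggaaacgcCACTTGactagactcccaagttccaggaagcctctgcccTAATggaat
The microRNA miR-204-5p, encoded inside Trpm3 on chromosome 19 from 22750610 to 22750631, is shown with its seed in capitals because it shares the locus. It was not measured here.
mmu-miR-204-5p: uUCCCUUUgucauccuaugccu

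Trpm5 mRNA was found almost entirely in cells with insulin. Its level in insulin-only cells was 168 CPM in the first library and 172 in the second (170.1 ± 3.23 CPM, SD, n = 2), from 731 and 698 UMIs. In Gcg-only cells the level was 0.575 and 0.528 CPM, in Sst-only cells 1.99 and 0, and in Ppy-only cells 1.11 and 0.755. The 2 insulin-only values stood far above every value of the other single-hormone groups, which did not differ from each other by more than counting error. Of 1596 Trpm5 UMIs in all cells, 1570 (98.4%) were in cells with at least 1% insulin.

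**Figure D1:**
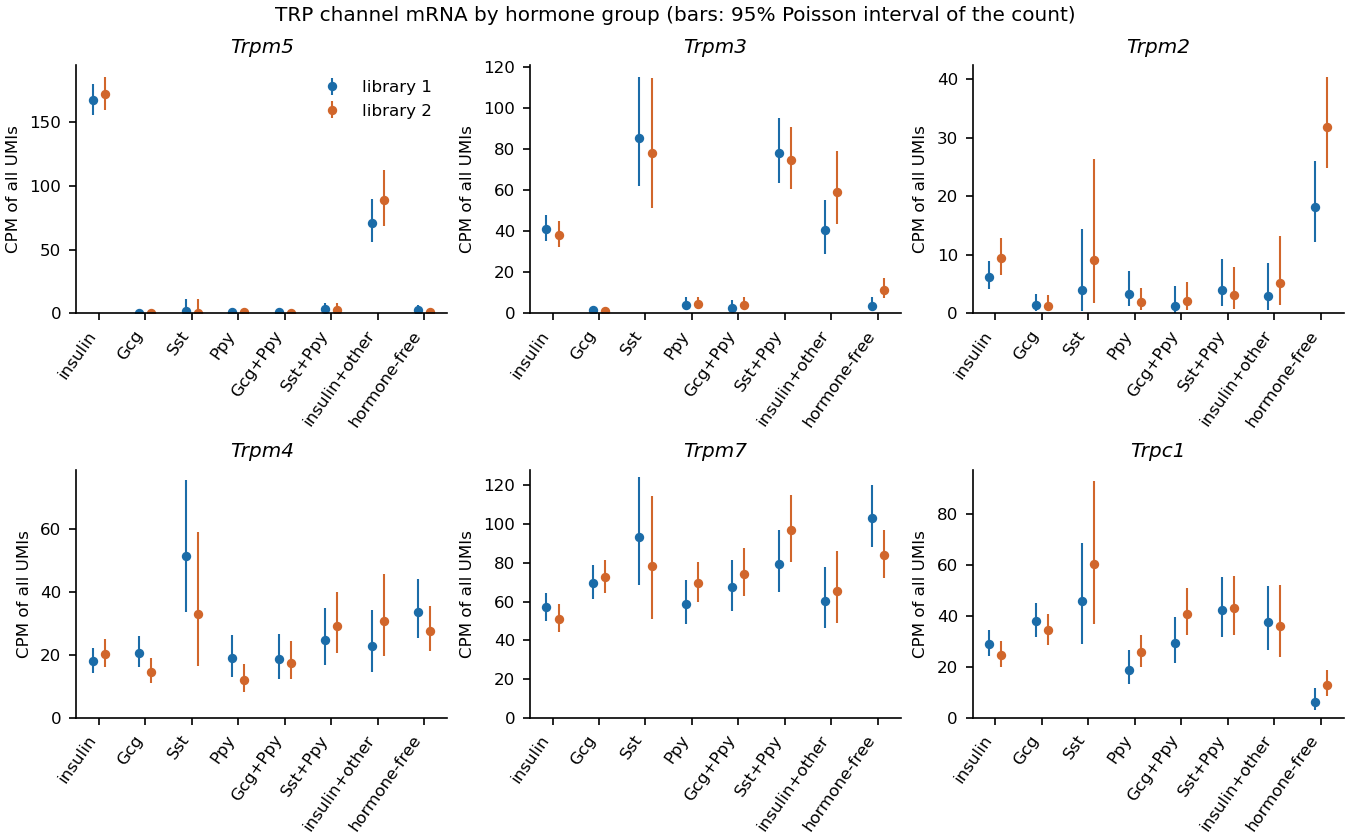
Level of each TRP channel gene in CPM of all UMIs (vertical axis) by hormone group (horizontal axis), with library 1 in blue, library 2 in orange and 95% Poisson intervals of the count as bars. Trpm5 stands at 168 and 172 CPM in insulin-only cells and near 0 in groups without insulin, Trpm3 is high in the insulin and Sst groups, and Trpm2 is highest in hormone-free cells at 18.2 and 31.9 CPM.

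Summed over both libraries, Trpm5 was 309 times higher in insulin-only cells than in Gcg-only cells (95% counting interval 120 to 1135, 1429 against 4 UMIs), 142 times higher than in Sst-only cells (25.4 to 5612, against 1 UMI) and 189 times higher than in Ppy-only cells (73.7 to 695, against 4 UMIs). In edgeR the gene was called in all 3 comparisons, with adjusted p of 1.8e-11, 8.1e-09 and 1.8e-10. It passed the filter on low counts only through the groups with insulin, so these p-values add no support beyond the counts. Intervals on counts and shares here cover counting error only. The few UMIs in groups without insulin were set beside the insulin UMIs found there, which were below 1% in each cell and whose source was not tested. At the Trpm5-to-insulin ratio of insulin-only cells, the insulin UMIs in Gcg-only cells correspond to 5.73 Trpm5 UMIs, where 4 were counted, and those in Ppy-only cells to 2.99, where 4 were counted. In cells with Sst and Ppy, 8 were counted against 2.46, and in hormone-free cells 6 against 2.83.

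Within insulin-only cells Trpm5 was broadly detected. At least 1 UMI was present in 147 of 182 cells in library 1 (80.8%, 95% Clopper-Pearson interval 74.3% to 86.2%) and 160 of 190 in library 2 (84.2%, 78.2% to 89.1%). The share was 1.1% and 1.15% in Gcg-only cells, which had a median depth of 16414 and 19534 UMIs against 19642 and 17170 for insulin-only cells. After every cell was thinned to 4000 UMIs, 42.3% and 46.8% of insulin-only cells still had a Trpm5 UMI, against 1.1% and 0.575% of Gcg-only cells. The median insulin-only cell had 3 Trpm5 UMIs in both libraries, with quartiles of 1 and 5.75 in library 1 and 1 and 5 in library 2, and the highest cell had 25 and 18.

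**Figure D2:**
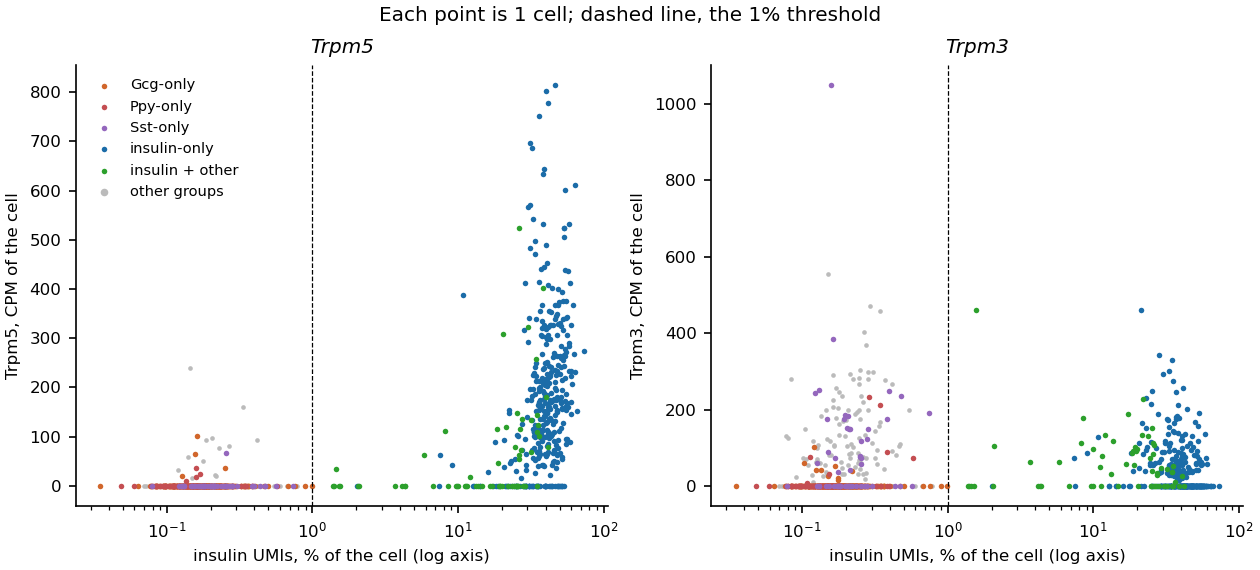
Level of Trpm5 (left) and Trpm3 (right) in CPM of each cell (vertical axes) against the share of insulin UMIs in that cell on a log axis, with hormone groups in colour and the 1% threshold dashed. Trpm5 is found right of the threshold, mostly in cells with more than 20% insulin, while Trpm3 is also present in Sst-only cells at low insulin.

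Cells that carried insulin beside another hormone were not uniform for Trpm5. As a group they had 71.4 and 88.7 CPM, from 72 and 69 UMIs. The 22 cells with insulin and Sst had 96 Trpm5 UMIs (124 CPM), where their insulin would correspond to 90.4 at the insulin-only ratio. The 14 cells with insulin, Sst and Ppy had 33, against 39.3. The 20 cells with insulin and Ppy had 3 Trpm5 UMIs (6.07 CPM) in 2 cells, against 32.4 at the insulin-only ratio, although their insulin share had a median of 14.2% and reached 35.1%. This made the Trpm5 level of insulin-only cells 28.0 times theirs (95% counting interval 9.56 to 136). Those 3 UMIs were in the 12 such cells of library 1, and the 8 of library 2 had 0. The same 20 cells had 34 Trpm3 UMIs (68.8 CPM), 40 of Trpm7 and 21 of Trpc1. Of them, 2 were called doublets. This split was made after the values were seen and was not tested.

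Trpm3 mRNA was present in insulin cells and in Sst cells and nearly absent from Gcg cells. Insulin-only cells had 41.3 and 38.3 CPM in libraries 1 and 2, Sst-only cells 85.5 and 78.3, and cells with Sst and Ppy 77.9 and 74.5. Gcg-only cells had 1.44 and 1.06 CPM and Ppy-only cells 3.89 and 4.53. The insulin and Sst groups did not overlap with the Gcg and Ppy groups, and the share of all genes for which this holds was not counted. Trpm3 was 39.2-fold higher in insulin-only than in Gcg-only cells (log2 fold change 5.29 ± 0.38 SE, edgeR adjusted p = 1.6e-08) and lower in Gcg-only than in Sst-only cells (log2 -5.6 ± 0.43, edgeR adjusted p = 9.3e-08). It was also higher than in Ppy-only cells, by 3.37 ± 0.34 on the log2 scale in insulin-only cells (edgeR adjusted p = 1.6e-06) and by 3.68 ± 0.39 in Sst-only cells (5.4e-06).

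Between insulin-only and Sst-only cells the difference depends on what the counts are set against. Insulin took 37.6% and 41.2% of all UMIs in insulin-only cells, and Sst took 8.88% and 9.41% in Sst-only cells. Set against UMIs outside the 5 hormone genes, Trpm3 was at 66.4 and 65.3 CPM in insulin-only cells and at 94.5 and 87.2 in Sst-only cells. The edgeR fit scales by TMM over the genes tested. Factors taken without the filter on low counts ran from 0.703 to 1.3. The fit gave a log2 difference of -0.31 ± 0.28, with an interval from -0.86 to 0.25, and did not call it (edgeR adjusted p = 0.55). At least 1 Trpm3 UMI was seen in 44.5% and 34.7% of insulin-only cells and in 48.6% and 43.5% of Sst-only cells. After thinning to 4000 UMIs these were 14.3% and 10% against 31.4% and 26.1%. In Gcg-only cells, 5 and 4 cells had a Trpm3 UMI before thinning and 0 after it.

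Ppy-only cells held 19 Trpm3 UMIs in 7 cells, with 6 in a single cell of each library. The insulin and Sst UMIs of the group correspond to 3.48. This takes the ratio to insulin from insulin-only cells, and that to Sst from Sst-only cells and cells with Sst and Ppy together. The difference from Gcg-only cells was called (log2 -1.92 ± 0.56, edgeR adjusted p = 0.038), but not with a hormone threshold of 0.5% (adjusted p = 0.29), 2% (0.34) or 5% (0.23) or at equal cell numbers (0.41), and its value was -1.16 without library 2. Trpm5 and Trpm3 were found together in 67 of 182 insulin-only cells in library 1 and 52 of 190 in library 2. Trpm3 without Trpm5 was seen in 14 and 14.

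Trpm2 was found at few UMIs in the endocrine groups. Insulin-only cells had 6.2 and 9.38 CPM (27 and 38 UMIs), Gcg-only cells 1.44 and 1.32, Ppy-only cells 3.34 and 1.89, and Sst-only cells 3.97 and 9.04 from only 2 and 3 UMIs. Both insulin-only values were above both of Gcg-only and of Ppy-only cells, an order that 2 against 2 libraries can give with no difference. The gene was 7.01-fold higher in insulin-only than in Gcg-only cells (log2 2.81 ± 0.53, edgeR adjusted p = 0.00068) and higher than in Ppy-only cells (log2 1.78 ± 0.53, edgeR adjusted p = 0.024). It passed the filter on low counts through the insulin-only and hormone-free groups, where it was high. These p-values therefore add no support beyond the counts. The second call was lost with DESeq2 (adjusted p = 0.099) and at a hormone threshold of 0.5% (0.055), and without library 2 its value was 0.83, against 2.14 without library 1. Without library 2 the first value was 1.82. Values without a library hold a prior count, which draws them toward 0 at low counts. At a median of 0 UMIs a cell, Trpm2 was seen in 10.4% and 13.7% of insulin-only cells. Leukocyte markers, summed over 9 genes, were at 78.7 and 108 CPM in insulin-only cells, 11.5 and 13.2 in Gcg-only cells and 51.7 and 196 in Ppy-only cells. Their part in the Trpm2 difference was not tested.

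Trpm4, Trpm7 and Trpc1 were expressed in all 4 endocrine groups. Trpm4 was at 17.9 and 20.2 CPM in insulin-only cells, 20.7 and 14.5 in Gcg-only, 18.9 and 12.1 in Ppy-only and 51.7 and 33.1 in Sst-only cells. The Sst-only values were the highest and rested on 26 and 11 UMIs. Summed endothelial markers in these cells were at 564 CPM in library 1 and 48.2 in library 2, and their part in the level was not tested. The fitted log2 difference between Gcg-only and Sst-only cells was -0.93 ± 0.33 and was not called (edgeR adjusted p = 0.083), nor was Sst-only against Ppy-only (0.95 ± 0.35, adjusted p = 0.11).

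Trpm7 was at 56.9 and 51.1 CPM in insulin-only cells, 69.6 and 72.6 in Gcg-only, 58.9 and 69.5 in Ppy-only and 93.4 and 78.3 in Sst-only cells. The order of the groups depends on the total. Set against UMIs outside the 5 hormone genes, Trpm7 was at 103 and 87.2 CPM in Sst-only cells and at 91.1 and 108 in Ppy-only cells. In the fit, which scales over the genes tested, none of its 6 differences between single-hormone groups exceeded 0.15 in size on the log2 scale. The interval for insulin-only against Gcg-only cells ran from -0.32 to 0.24. Trpc1 was at 28.9 and 24.7 CPM in insulin-only cells, 38 and 34.3 in Gcg-only, 18.9 and 25.7 in Ppy-only and 45.7 and 60.2 in Sst-only cells. Its widest fitted difference, Sst-only over Ppy-only cells, was 0.62 ± 0.31 (edgeR adjusted p = 0.24).

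**Figure D3:**
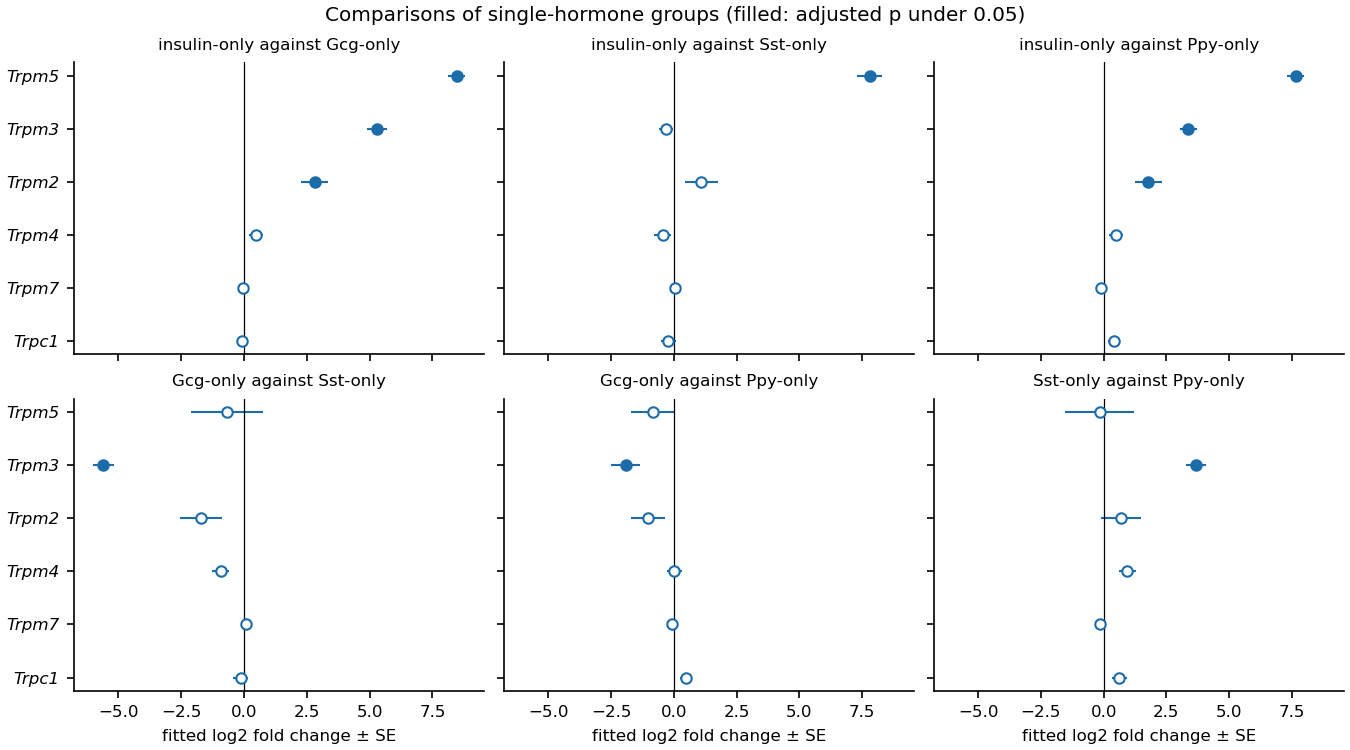
Fitted log2 fold changes ± SE (horizontal axes) of the 6 genes in the 6 comparisons between single-hormone groups, with filled points for adjusted p under 0.05. Trpm5 is past 7 in the 3 comparisons with insulin-only cells, Trpm3 is called in 5 comparisons, and Trpm4, Trpm7 and Trpc1 have open points throughout.

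All 6 genes passed the filter on low counts, Trpm5 and Trpm2 with at least 10 UMIs in only 4 of 16 sums. For Trpm5 these were the sums of insulin-only cells and of cells with insulin and another hormone. For Trpm2 they were those of insulin-only and hormone-free cells. The calls of these 2 genes in comparisons with those groups are counted below but add no support beyond the counts. Of the 6, 3 were called between insulin-only and Gcg-only cells, where 24.6% of 14970 genes tested were called. Between insulin-only and Sst-only cells 1 was called against 14.6% of genes, and between insulin-only and Ppy-only cells 3 against 19.9%. The other pairs gave 1 each, which was Trpm3 every time. The share of genes called was 12.6% for Gcg-only against Sst-only, 9.49% for Gcg-only against Ppy-only and 9.11% for Sst-only against Ppy-only cells. With 6 genes, 1 call is close to these shares.

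Ppy beside Gcg or Sst came with no called change in the 6 genes. For cells with Gcg and Ppy against Gcg-only cells, 0 of 6 members were called by edgeR, where 0.0334% of genes were. DESeq2 also called 0, and at an unadjusted p under 0.05 there was 1, Trpm3 (log2 1.45 ± 0.62, unadjusted p = 0.033), from 12 against 9 UMIs. For cells with Sst and Ppy against Sst-only cells, 0 of 6 were called by edgeR and by DESeq2, against 0.0134% of genes, with 0 at an unadjusted p under 0.05. The Trpm3 difference there was 0.01 ± 0.29, with an interval from -0.56 to 0.58.

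Among insulin-only cells, those with a larger insulin share had more Trpm5 and less Trpm7. Cells were divided within each library into terciles by insulin share, with medians of 29.9% and 32.6% in the lowest tercile and 48.2% and 52.3% in the highest, and counts were set against UMIs outside the 5 hormone genes. Trpm5 was at 176 and 155 CPM in the lowest, 328 and 340 in the middle and 350.1 and 475 in the highest tercile. Trpm7 was at 109 and 109, then 101 and 73.5, then 48.5 and 68.2. Highest and lowest terciles did not overlap for either gene, which 2 against 2 libraries can give with no difference. The share of all genes that separate this way was not counted. As CPM of all UMIs, Trpm5 was at 128 and 106, then 201 and 197, then 178 and 225, so that the middle and highest terciles overlapped.

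**Figure D4:**
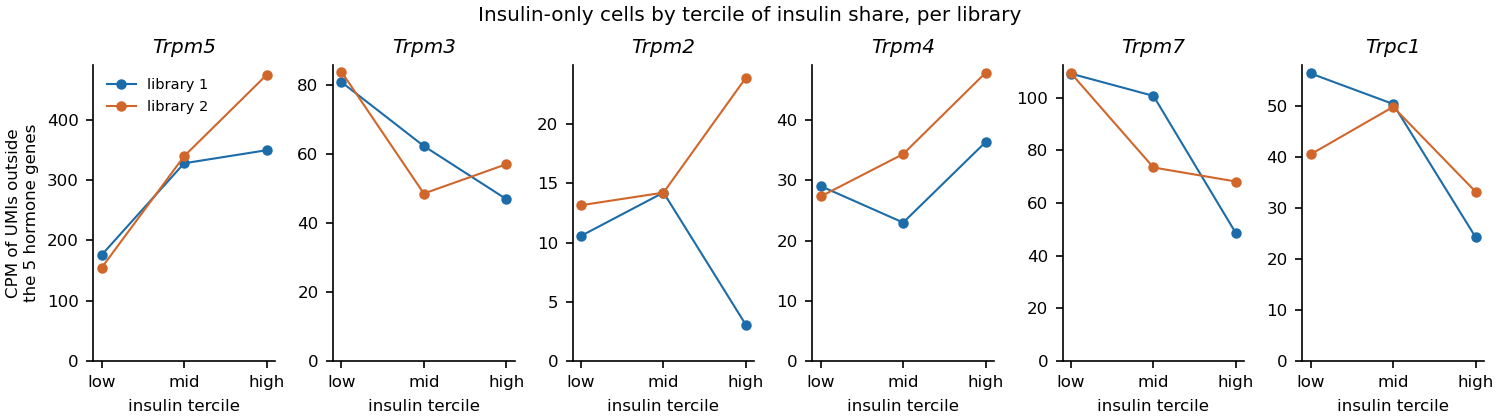
Level of each gene in CPM of UMIs outside the 5 hormone genes (vertical axes) in the low, mid and high tercile of insulin share (horizontal axes) of insulin-only cells, with 1 line per library. Trpm5 goes from 176 and 155 CPM to 350.1 and 475, and Trpm7 from 109 and 109 to 48.5 and 68.2.

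Of the 6 members, 2 were called between the highest and lowest terciles, where 8.95% of 10351 genes were. Trpm5 was 2.66-fold higher in the highest tercile (log2 1.41 ± 0.16, edgeR adjusted p = 6.5e-07). Trpm7 was lower (log2 -0.82 ± 0.24, edgeR adjusted p = 0.032), a call lost when cells were split at the median insulin share in place of terciles (adjusted p = 0.064). That split left the Trpm5 call in place, at 0.84 on the log2 scale (adjusted p = 0.00011). Trpm3 went from 81 and 84 CPM to 47 and 57.1 (log2 -0.57 ± 0.25, edgeR adjusted p = 0.17), and Trpc1 from 56.3 and 40.5 to 24.2 and 33.2 (log2 -0.67 ± 0.32, adjusted p = 0.2), neither called. Trpm4 (0.67 ± 0.34, adjusted p = 0.23) and Trpm2 (0.22 ± 0.65) were not called either. The median depth was 21104 and 20091 UMIs in the lowest tercile and 17760 and 15328 in the highest. Its part in these differences was not tested. Over single cells, Spearman's rho between insulin share and Trpm5 per UMI outside the hormone genes was 0.4 in 182 cells and 0.559 in 190. Both measures come from the same cell, and its total depth enters both.

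Hormone-free cells, which carried leukocyte and endothelial markers, differed from the endocrine groups in Trpm2 and Trpc1. Trpm2 was highest there, at 18.2 and 31.9 CPM (29 and 69 UMIs). Trpc1 was lowest there, at 6.26 and 12.9 CPM. Against the mean of the 4 single-hormone groups, 3 of 6 members were called, where 60.0% of genes were. Trpm2 was higher (log2 2.39 ± 0.35, edgeR adjusted p = 1.3e-05). It passed the filter on low counts through these cells and insulin-only cells, so this p-value adds no support beyond the counts. Trpc1 was lower (log2 -2.11 ± 0.25, edgeR adjusted p = 1.4e-06), and so was Trpm3 (log2 -0.92 ± 0.33, edgeR adjusted p = 0.025), a call lost with DESeq2 (adjusted p = 0.073), at hormone thresholds of 0.5% (0.061) and 5% (0.067) and at equal cell numbers (0.48). The Trpm3 value was -0.46 without library 1 and -1.89 without library 2.

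Each hormone-free cell was assigned to the marker list of which it showed most genes, at least 3, a rule set after the data were seen. Leukocyte markers led in 82 cells, endothelial markers in 61, ductal markers in 19 and stellate markers in 8, while 13 had no leading list. The 82 leukocyte-led cells held 78 of the 98 Trpm2 UMIs, at 45.4 and 79.6 CPM in libraries 1 and 2, with a UMI in 11 cells in either library. Endothelial-led cells had 0 and 12.2 CPM of Trpm2, the latter from 2 cells. With leukocyte-led cells left out, an alternative chosen after seeing the data, the Trpm2 difference was 0.66 ± 0.54 on the log2 scale and no longer called (edgeR adjusted p = 0.32), and neither was Trpm3 (-0.37 ± 0.33, adjusted p = 0.36). Trpc1 was still called lower (log2 -1.51 ± 0.24, edgeR adjusted p = 5.3e-05). The leukocyte-led cells had already been seen to hold most Trpm2 UMIs and almost none of Trpm3 or Trpc1. Leaving them out moves these levels by construction, so the lost calls are no separate support.

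Trpm4 and Trpc1 were low in the leukocyte-led cells. These cells held 4 Trpm4 UMIs (3.24 CPM, 95% Poisson interval 0.882 to 8.29) and 0 of Trpc1 (95% Poisson upper limit 2.98 CPM). Endothelial-led cells had 29.6 CPM of Trpm4 (21.3 to 40.0 CPM) and 14.1 CPM of Trpc1, and ductal-led cells 53.7 CPM of Trpm4 (37.2 to 75.0 CPM) but 1 UMI of Trpc1 (1.58 CPM). The 13 cells with no leading list had 85.3 CPM of Trpm4 and 41.3 CPM of Trpc1. Trpm7 was at 85.8 CPM in leukocyte-led, 100.1 in endothelial-led and 97.9 in ductal-led cells, with overlapping intervals. Over all hormone-free cells, Trpm4 was not called against the endocrine mean (log2 0.09 ± 0.22, edgeR adjusted p = 0.76). Leaving out the leukocyte-led cells, already seen to hold little Trpm4, raises the level by construction. The difference was then 0.66 ± 0.23 on the log2 scale (edgeR adjusted p = 0.022), which is no separate support.

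**Figure D5:**
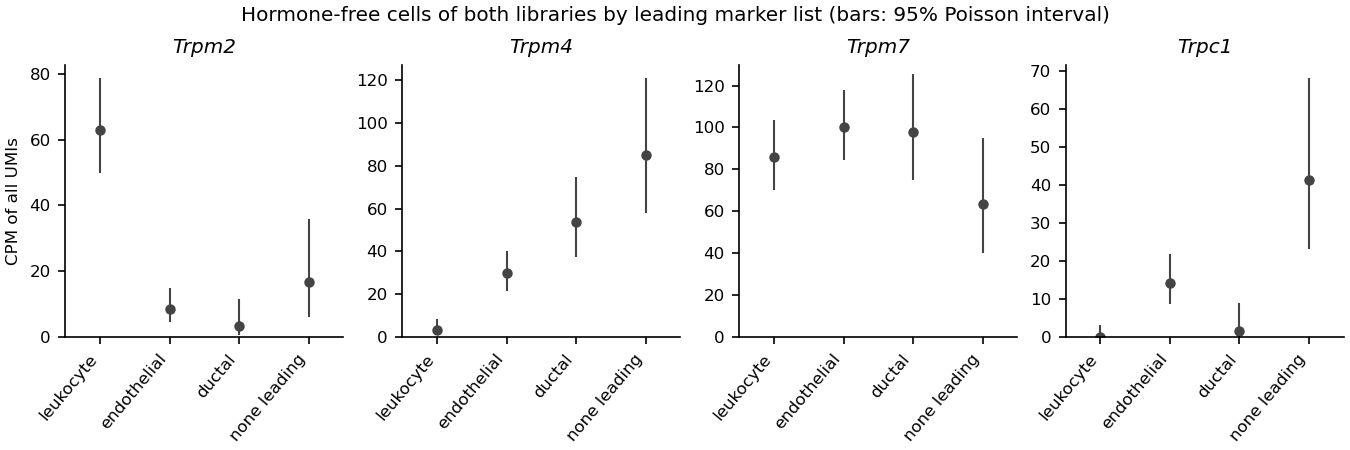
Level of 4 genes in CPM of all UMIs (vertical axes) in hormone-free cells of both libraries summed, by leading marker list (horizontal axes), with 95% Poisson intervals. Trpm2 is at 63.1 CPM in leukocyte-led cells and at 8.46 in endothelial-led cells, while Trpm4 and Trpc1 are near 0 in leukocyte-led cells and Trpm7 is present in all.

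Of 22 other TRP genes, 19 were listed and 9 passed the filter, of which 1 was called between insulin-only and Gcg-only cells (24.6% of all genes). Pkd2, the polycystin cation channel, was at 39.5 and 39.5 CPM in insulin-only, 46.9 and 57.3 in Gcg-only and 67.6 and 78.3 in Sst-only cells. Mcoln1, a lysosomal channel, was at 18.1 and 12.1 CPM in insulin-only and 25.9 and 23 in Gcg-only cells. Trpa1, the irritant receptor, had 11.9 and 21.1 CPM in Sst-only cells (13 UMIs) and 0 UMIs in insulin-only and Gcg-only cells. It was at least 43.6-fold and 37.7-fold higher in Sst-only cells, taking 3 counts over the group as the limit of 0 (edgeR adjusted p = 0.0013 and 0.0011). Cells with Sst and Ppy had 11.1 and 11.5 CPM of Trpa1, and Ppy-only cells 3.34 and 0.755. Sst-only against Ppy-only cells was not called (log2 2.48 ± 0.87, edgeR adjusted p = 0.098). Trpc4, a receptor-operated channel, had 7.58 and 5.43 CPM in insulin-only cells and 3.16 and 0.528 in Gcg-only cells (log2 2.16 ± 0.73, edgeR adjusted p = 0.04). In hormone-free cells, Trpv2 was at 36.3 and 34.6 CPM (log2 4.06 ± 0.48, edgeR adjusted p = 2.1e-06) and Mcoln2 at 12.5 and 12 CPM. Trpa1, Trpc4, Trpv2 and Mcoln2 passed the filter on low counts only through the groups where they were high. Their calls add no support beyond the counts.

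The genes with which TRP channels are known to act gave differing counts. In the taste cascade, through which Trpm5 is opened in taste cells, 9 of 11 genes were listed and 3 passed the filter. Of these, 0 were called between insulin-only and Gcg-only cells by edgeR, where 24.6% of all genes were. With 3 genes, 0 calls is close to that share. Of the cascade, Gnb1 was at 137 and 129 CPM and Itpr3 at 34.9 and 33.1 CPM in insulin-only cells. Gnat3 and Gnb3, G protein subunits of that cascade, had 0 UMIs in insulin-only cells, and Gng13 had 0.918 and 0.494 CPM. Of 8 genes of ADP-ribose metabolism, 1 was called between insulin-only and Gcg-only cells, where 24.6% of all genes were. With 8 genes, 1 call is close to that share. The called gene was Nudt9, an ADP-ribose hydrolase (log2 1.02 ± 0.32, edgeR adjusted p = 0.029). Cd38, which makes cyclic ADP-ribose, was at 170 and 157 CPM in hormone-free cells and at 3.21 and 0 in insulin-only cells.

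Of 10 genes of store-operated calcium entry, 6 were called between insulin-only and Gcg-only cells, 5 higher and 1 lower, where 24.6% of all genes were called, with a median log2 difference of 0.97 over the 10 and of 0 over all genes. Atp2a2, the calcium pump of the endoplasmic reticulum, was at 665 and 633 CPM in insulin-only and 184 and 172 in Gcg-only cells (log2 2.22 ± 0.15, edgeR adjusted p = 5.5e-09). Stim1, the calcium sensor of that store, was at 102 and 101 against 57.2 and 47.8 CPM (log2 1.31 ± 0.15, edgeR adjusted p = 3.2e-06). Among the receptors for inositol trisphosphate, Itpr2 was higher (log2 3.59 ± 0.4, edgeR adjusted p = 3.2e-06) and Itpr1 lower in insulin-only cells (log2 -2.12 ± 0.17, edgeR adjusted p = 7e-08). Of 12 magnesium transport genes, 11 passed the filter and 6 were called between these groups, 5 higher and 1 lower, against the same 24.6%. Magt1, counted here among the magnesium transport genes, was higher (log2 1.64 ± 0.12, edgeR adjusted p = 1.4e-08) and Slc41a2 lower (log2 -2.95 ± 0.34, edgeR adjusted p = 4.6e-06). Trpm6, the closest relative of Trpm7, had 11 UMIs in the 16 sums.

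For each member the genes of most similar level were found by Pearson's r of log2(CPM + 10) over the 16 sums of group and library, which share 2 libraries. For Trpm5 these were Prss53 (r = 0.997), Mafa (0.995) and Sytl4 (0.994). Prss53 had 166 and 191 CPM in insulin-only cells and at most 3.97 CPM in the single-hormone groups without insulin. For Trpm3 they were Npnt (0.982), P2ry1 (0.98) and Frzb (0.979), each, like Trpm3, high in the insulin and Sst groups. For Trpm2 they were Jak1 (0.944), Lrrfip1 (0.933) and Npr1 (0.931), and for Trpc1 they were Sgsm2 (0.968), E230020A03Rik (0.963) and Maco1 (0.959). Trpm4 had Ap3b1 (0.936), Parl (0.917) and Rnf220 (0.915), and Trpm7 had Clasp1 (0.944), Snap29 (0.94) and Emg1 (0.939).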

How the data were processed

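The 2 tables of whole-number UMI counts, 1 per library, were deposited by the authors. Per the methods of the study, the Cytonaut software called cell barcodes with the knee method of UMI-tools, aligned reads to exons only on GRCm38 with Ensembl annotation, removed duplicates and assigned reads to genes. The submitters' processing notes also name Seurat. The aligner is not given in the sources used here. Intronic reads are therefore not counted, and only barcodes above a depth limit are held.

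Tables were joined on gene rows, a missing row counting as 0. Cells were grouped by hormone at 1% of UMIs, and groups needed 10 cells in each library. UMIs were summed per library and group (8 groups, 16 sums of 331967 to 4356370 UMIs) and entered 1 quasi-likelihood fit (glmQLFit and glmQLFTest of edgeR 4.0.16, under R 4.3.3) after filterByExpr and TMM scaling, with Benjamini-Hochberg adjustment over all genes and a threshold of 0.05. Ins1, Ins2, Gcg, Sst and Ppy were left out of the tests and kept in the totals, except for terciles, whose totals leave them out. SE is the log2 fold change over the root of F, and intervals of differences are 1.96 SE to either side. Levels are CPM, with SD over n = 2 libraries and 95% exact Poisson intervals. Shares have Clopper-Pearson intervals, and 3 counts were taken as the limit of 0. An exact permutation test of 2 against 2 cannot go below p = 0.333, so levels were not tested this way. Python 3.11.15 with scanpy 1.11.5 called doublets with Scrublet, which were kept. No cell was below the thinning depth of 4000 UMIs.

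Sums of the same number come from the same library. Their deviations from the group means correlated between -0.0546 and 0.0962 over 28 pairs of groups. On simulated counts with 200 changed genes, the fit for insulin-only against Gcg-only cells recovered 54% of 2-fold and 98% of 4-fold changes among 13501 genes tested, with 4 false calls. The changed genes had an average of at least 10 UMIs per sum. The spread was fixed in advance, and all groups had the same base profile. Recovery in comparisons with Sst-only cells, and for genes at lower counts, was not measured. Coordinates came from GENCODE M21, in which 99.8% of gene identifiers were found, and promoter and microRNA sequences from RefSeq on GRCm38.p6, which matched 5 members. No window was found there for Trpm4.

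The named genes are the 6 members, lists of other TRP channels and of partner genes, cell type markers, and for each member the 3 genes with the highest r. Members and lists were chosen with earlier results of these data known. Alternatives were other hormone thresholds, DESeq2 1.42.0, RLE scaling, totals without hormones, no filter on low counts, a replicate block, doublets removed, equal cell numbers and leaving out either library, which leaves 1 sum per group, a log2 ratio of CPM and no test.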

Additional observations from a re-analysis of the deposited data

Results flagged for a closer look

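The 29 cells with at least 1% of both Gcg and Sst entered no comparison, and 4 of the 6 genes were above the limit of 3 counts in them. They held 27 Trpm3 UMIs (37.2 and 29.4 CPM in libraries 1 and 2), 14 of Trpm4 (16 and 18.1 CPM), 85 of Trpm7 (101 and 106 CPM) and 36 of Trpc1 (42.6 and 45.2 CPM). Trpm5 had 1 UMI and Trpm2 0 there. Of these cells, 3 were called doublets, and their part in these levels was not tested.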

How the results depend on the processing

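The 15 called member differences kept their direction under every alternative that gave a value, with the call kept in 130 tested instances and lost in 13. Of the values of the levels under alternatives, 95 moved by more than the SD between libraries and 289 did not. The number of members called between Gcg-only and Ppy-only cells was 0 in place of 1 at hormone thresholds of 0.5%, 2% and 5% and at equal cell numbers. Equal cell numbers, 23 per group and library, also left 1 member in place of 3 for hormone-free cells, and there fewer cells enter by construction and Trpm2 did not pass the filter on low counts. DESeq2 called 1 in place of 2 between terciles, since it gave Trpm7 no adjusted p. The replicate block changed no call of a member.

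Counts over all genes moved more. Equal cell numbers lowered them from 3685 to 994 for insulin-only against Gcg-only cells, 2180 to 789 against Sst-only, 2982 to 819 against Ppy-only, 1881 to 754 for Gcg-only against Sst-only, 1421 to 255 for Gcg-only against Ppy-only, 1364 to 607 for Sst-only against Ppy-only and 8987 to 4437 for hormone-free cells. DESeq2 called 445 in place of 926 between terciles. For Gcg and Ppy against Gcg-only cells the count was 5, and 145 without the filter on low counts, 16 with DESeq2, 8 without called doublets, 3 at 2% and 2 at equal numbers. For Sst and Ppy against Sst-only cells it was 2, and 64 without the filter, 1 at 0.5%, with RLE or without doublets, and 0 at 2%. The cause was not tested.

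Leaving out either library kept the direction of all 15 called member differences, with no test. Trpm5 ranged from 7.01 to 7.3 against Gcg-only cells and Trpm7 from -1.03 to -0.55 between terciles. Sst-only cells were few, so differences in Trpm2 and Trpm4 there rest on 5 and 37 UMIs. Most shares of cells with a UMI fell with thinning, 53 of 54. Both libraries come from 1 preparation, so no value here measures variation between animals.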

Other observations

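Calmodulin and sulfonylurea receptor genes were looked at because calcium-bound calmodulin tunes Trpm4 and because sulfonylurea receptors have been tied to Trpm4 in other tissues. Of 5 genes, 2 were called between insulin-only and Gcg-only cells, where 24.6% of all genes were. Abcc8, the sulfonylurea receptor of the beta cell, was at 368 and 307 CPM in insulin-only and 611 and 591 in Gcg-only cells (log2 -0.48 ± 0.15, edgeR adjusted p = 0.024), and Calm2 at 152 and 133 against 314 and 309 CPM (log2 -0.77 ± 0.16, edgeR adjusted p = 0.0013). Abcc9, its relative in muscle and vessels, had 78.9 and 15.7 CPM in hormone-free cells and at most 0.288 CPM in the insulin-only and Gcg-only groups.

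Few cells lay near the insulin threshold. Of 1483 cells, 14 had an insulin share of 0.5% to 1%, with 0 Trpm5 UMIs, and 5 had 1% to 2%, with 1. The 7 cells with 2% to 5% insulin had 0 Trpm5 UMIs, the 34 with 5% to 20% had 16 (19.5 CPM), and the 390 with more had 1553 (169.7 CPM). The 12 cells between 1% and 5% held too few UMIs to show whether Trpm5 was absent.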
